A study of Mus musculus with 8 samples.

Results

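The Hox genes are the subject here: all entries of the deposited expression table annotated as protein-coding whose symbol is Hox, a cluster letter from a to d and a number, 39 of the 47643 named genes. RNA-seq was performed on 2 libraries labelled wild type (WT; Mettl3 fl/fl littermates without Cre, per the study's methods) and 2 labelled Prx1-cre;Mettl3fl/fl (cKO), which lack the m6A methyltransferase Mettl3 where Prx1-Cre is active. m6A was mapped by MeRIP-Seq in MSCs labelled wild type, with 2 immunoprecipitates and 2 inputs that yielded 1 list of peaks. All samples were bone marrow MSC cultures on a C57BL/6 background kept for 2 days in osteogenic medium, which contained dexamethasone (100 nM), β-glycerophosphate (5 mM) and ascorbic acid (50 μg/ml). The age of the animals was not given in the sources used here. Prx1-Cre acts in the limb bud mesenchyme and its descendants, so blood cells in the same culture keep the gene.

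Hox genes encode homeodomain transcription factors and lie in 4 clusters, HoxA to HoxD. Their order along a cluster follows their order of use along the body axis and, in limbs, from shoulder or hip to digits, and genes at the same place in different clusters form 1 of 13 paralogue groups. Low numbers serve the head and neck, and groups 9 to 13 pattern the lower trunk and the limb, where group 10 is needed for the upper arm and thigh, group 11 for the forearm and lower leg, and group 13 for hand and foot. Skeletal stromal cells of the adult retain much of the Hox code of the place they came from, and HoxC genes of groups 9 to 11 are used in the hindlimb rather than the forelimb.

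Of the 10160 m6A peaks, 7 had their summit in a Hox gene by the GENCODE vM1 annotation of mm9, on 6 genes: Hoxa3, Hoxa6, Hoxa10, Hoxb6, Hoxc4 (2 peaks) and Hoxd8. The following 30-base windows are shown because they hold the GGAC core of the m6A consensus nearest to each summit within the peak, in capitals. No GGAC lay in the Hoxd8 peak, so that its window is the one at the summit. The GGAC lay 272 bases from the summit in the Hoxc4 5′UTR peak, 58 in Hoxb6 and 26 in Hoxa6. The windows of these peaks do not hold the summit. In the other peaks with GGAC it lay 0 to 11 bases away. Each sequence is read 5′ to 3′ on the strand of the gene in mm9. The place named in a line is that of the summit, not of the window. The Hoxa6 window lies past the last coding base, whereas its summit lies in coding sequence.
Hoxa10, coding, chr6:52182594-52182623, minus strand: gcgtccacctcacGGACagacaagtgaaaa
Hoxa3, coding, chr6:52120067-52120096, minus strand: cctcggctgccatGGACtacgggggcactg
Hoxa6, coding, chr6:52156335-52156364, minus strand: gactccagtgcagGGACcaggccagcgttg
Hoxd8, coding, chr2:74544740-74544769, plus strand: aatgaaatggaaaaaggagaacaacaaaga
Hoxb6, 3′UTR, chr11:96162501-96162530, plus strand: agaactgagaatcGGACtcacttgatgtct
Hoxc4, 5′UTR, chr15:102864529-102864558, plus strand: ggataggggaaatGGACttgaggatccgtg
Hoxc4, intron, chr15:102862161-102862190, plus strand: agagagagagagaGGACagagacagaaatg

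The RNA-seq libraries held 23978099 to 34106693 estimated counts, of which 2597 to 6221 were on Hox genes. Counts of the 2 cKO libraries differed by 1.82 times the sampling variance and those of the 2 WT libraries by 32.6 times (chi-square over its expectation), and nothing in the labels says that the libraries of a genotype came from separate animals, so the p-values measure only the spread between these libraries. CPM are counts per 1000000 counts of the tested genes, with library sizes scaled by TMM as in the edgeR fit. Mettl3 was not lower in the cKO libraries, at 17.5 and 16.3 CPM against 17.6 and 16.9 in WT (log2 fold change -0.03, adjusted p = 0.824, edgeR). The floxed allele loses exons 2 and 3, and counts over the whole gene do not check that loss. The cultures held macrophage transcripts throughout: 8 macrophage markers, Csf1r and Lyz2 among them, summed to 14200 to 19200 CPM in the WT and 19000 to 19200 in the cKO libraries. Most of each sum was Lyz2, at 11000 and 15900 CPM in WT and 15600 and 15700 in cKO. Of the 9 entries of these markers, all tested, 1 was higher (Ptprc, log2 fold change 0.42) and 0 lower, beside 13.7% and 16.8% of all genes. The 5 chondrocyte markers summed to 2780 to 2810 in WT and 64.7 to 66.5 in cKO, with 4 of the 4 tested lower, where 16.8% of all genes were. The 8 stromal markers summed to 4290 to 4480 and 2900 to 2950. Of the 8, 3 were lower and 4 higher, beside 16.8% and 13.7% of all genes tested. The lower ones carried the fall of the sum: Col1a1 (means of 1910 CPM in WT and 1240 in cKO), Col1a2 (1810 and 820) and Cxcl12 (298 and 190). The higher ones were Pdgfra, Pdgfrb, Thy1 and Prrx1, the gene whose enhancer drives Prx1-Cre (log2 fold change of Prrx1 1.05 ± 0.0667 SE). Of other cell types, the 5 endothelial markers summed to 3.22 to 3.64 CPM in WT and 14.5 to 17.1 in cKO. They did not move alike. Kdr (means of 2.11 CPM in WT and 9.38 in cKO) and Emcn (0.519 and 5.65) were called higher. Cdh5 (0.402 and 0.177, not called) and Pecam1 (0.257 and 0.161, not tested) lay lower, and Tek (0.139 and 0.451, not tested) higher. The 4 neutrophil markers summed to 2.75 to 3.54 and 0.377 to 0.825, with S100a9 and Mpo listed at 0 over spans shorter than the gene. The 4 erythroid markers summed to 0.207 to 0.578 in any library. The part of these differences in the Hox results was not tested. In such bulk samples, fewer cells of a type and less RNA per cell cannot be told apart.

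Hox mRNA in these marrow cultures came almost wholly from the HoxA and HoxC clusters and mostly from the posterior limb groups. Levels between genes are compared in TPM, a transcript level per length that sums to 1000000 in a library. The lengths behind the deposited TPM are not the gene lengths listed in the table, and the ranks rest on them: in CPM, not scaled by length, Hoxa11 (29.1 and 32.4 in WT) lay above Hoxa9 (23.7 and 28.4). HoxA genes held 65.9% of the summed Hox TPM in WT and 56.1% in cKO, HoxC genes 29.1% and 34.4%, HoxB genes 4.47% and 8.56%, and HoxD genes 0.452% and 0.926%. In WT the 4 genes at the top were Hoxa10, Hoxa9, Hoxa11 and Hoxc10, which together held 65.2% of all Hox TPM. In cKO the order was Hoxa10, Hoxa9, Hoxc10 and Hoxc6, and Hoxa11 moved from rank 3 to rank 7. There Hoxc10 (11 and 11.4 TPM) overlapped Hoxc6 (10.4 and 11.5), and Hoxa11 (3.54 and 4.07) overlapped Hoxc13 (3.78 and 3.45). Neighbours in the lower ranks differed by less than their spread between libraries: in WT, Hoxa5 (4.69 and 4.54 TPM), Hoxc9 (4.11 and 4.86) and Hoxb4 (4.18 and 4.44) overlapped. The top ranks did not overlap in WT, with 38.1 and 44.9 TPM for Hoxa10 above 26.4 and 33.6 for Hoxa9, but Hoxa11 and Hoxc10 did.

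**Figure D1:**
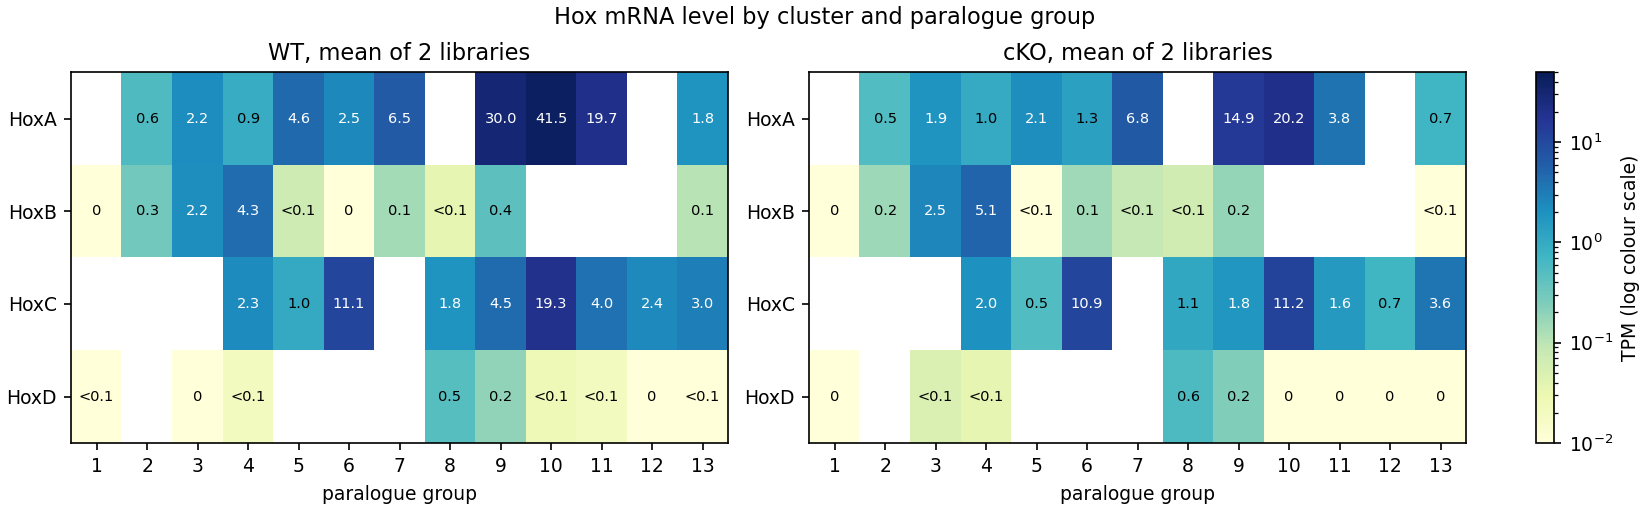
Mean TPM of the Hox genes in the 2 WT (left) and 2 cKO (right) libraries, by cluster (rows) and paralogue group (columns), on a log colour scale, with the mean printed in each cell and white where there is no gene or no value is given. HoxA and HoxC are filled along most of their length, HoxB has levels above 1 TPM only for Hoxb3 and Hoxb4, and HoxD stays below 1 TPM.

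Summed over all 39 genes, Hox mRNA was 155.3 and 183.5 TPM in the WT libraries and 96.5 and 97.6 TPM in the cKO libraries, without overlap. HoxA genes fell from 105 and 119 to 55.2 and 53.7 TPM, and HoxC genes lay at 42.9 and 55.9 in WT against 32.2 and 34.7 in cKO. HoxB genes did not follow, at 7.0 and 8.16 TPM in WT and 8.21 and 8.43 in cKO. With 2 libraries a group an exact permutation test of one value cannot go below p = 0.333, and these sums are given without a test.

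Of the 39 Hox genes, 24 had enough counts to be tested with all others. In cKO, 11 of the 24 were lower (45.8%) and 0 higher at an adjusted p under 0.05 (edgeR, Benjamini-Hochberg over 15327 genes), whereas 16.8% of all genes tested were lower, 13.7% were higher and 30.5% passed in either direction. At an unadjusted p under 0.05, 13 Hox genes were lower and 0 higher, and DESeq2 and limma found 9 lower and 0 higher. The median log2 fold change was -0.88 over the 24 Hox genes and 0.00 over all genes tested, and 19 of the 24 were below 0. In CPM both cKO libraries lay below both WT libraries for 14 Hox genes and above for 1, beside 35.0% and 33.9% of all genes. A gene passed the filter with enough counts in 1 genotype alone, so that these shares do not describe all 39 genes.

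The genes that fell were mostly posterior members of HoxA and HoxC. In groups 9 to 13, 8 of the 10 tested genes were lower, with a median log2 fold change of -1.34, and in groups 1 to 8, 3 of 14 were lower, with a median of -0.19. All 4 HoxA genes of groups 9 to 13 fell and 4 of the 5 HoxC genes, while 1 of 7 HoxA genes and 2 of 4 HoxC genes of groups 1 to 8 did. Across the 24 genes, Spearman's rho between paralogue group and log2 fold change was -0.57. The points share libraries and neighbouring genes share transcripts, so this is a description. The summed level of groups 9 to 13 was 114 and 140 TPM in WT and 58.8 and 59.2 TPM in cKO, and that of groups 1 to 8 was 40.7 and 44.1 TPM against 37.8 and 38.5 TPM.

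**Figure D2:**
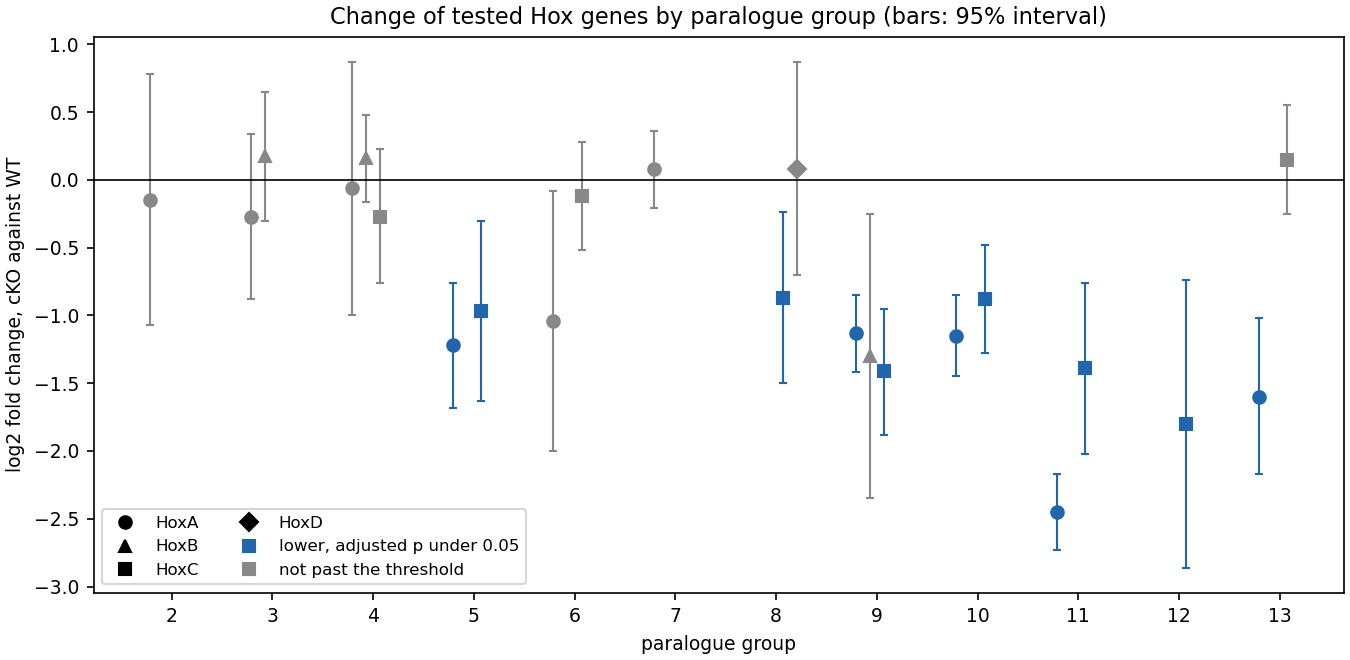
Log2 fold change of tested Hox genes, cKO against WT (vertical axis), by paralogue group (horizontal axis), with the cluster as the symbol, 95% intervals of the edgeR fit as bars and blue for an adjusted p under 0.05. From group 9 on, 8 of 10 genes are blue, and Hoxc13 lies at 0.15. In groups 2 to 4 no gene is blue.

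Hoxa11, a group 11 gene that with its paralogues is needed for the bones of forearm and lower leg, had the largest change of the 24 tested Hox genes. It measured 18.9 and 20.5 TPM in WT and 3.54 and 4.07 TPM in cKO, a 5.47-fold difference in the fit (log2 fold change -2.45 ± 0.117 SE, adjusted p = 4.8e-05, edgeR). Both cKO libraries lay far below both WT libraries. Hoxc11, the HoxC gene of the group, stood at 3.23 and 4.73 TPM in WT and 1.46 and 1.78 TPM in cKO (log2 fold change -1.39 ± 0.261, adjusted p = 0.0103). Its 2 WT libraries differed more from each other than the 2 cKO libraries did. The third member, Hoxd11, had 3 counts in WT replicate 1 and 0 elsewhere, so group 11 mRNA was that of Hoxa11 and Hoxc11 in these cultures.

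Group 10, which patterns the upper arm and thigh and keeps ribs off the lumbar vertebrae, held 35.9% of Hox TPM in WT and 32.3% in cKO. Hoxa10, the most abundant Hox mRNA in both genotypes, measured 38.1 and 44.9 TPM in WT and 20.6 and 19.8 TPM in cKO (log2 fold change -1.15 ± 0.124 SE, adjusted p = 0.00124, edgeR). Hoxc10, a hindlimb and lumbar gene, measured 16.3 and 22.3 TPM in WT and 11 and 11.4 TPM in cKO (log2 fold change -0.88 ± 0.166, adjusted p = 0.0102). Each gene was lower in both cKO libraries than in either WT library, and WT replicate 2 was the higher of the WT pair for both. Hoxd10 had at most 1 count in a library.

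In group 9, whose members act in the posterior part of the early limb bud, Hoxa9 is also a regulator of blood progenitors. Hoxa9 measured 26.4 and 33.6 TPM in WT and 15.2 and 14.7 TPM in cKO (log2 fold change -1.13 ± 0.117 SE, adjusted p = 0.00103, edgeR). Hoxc9, a thoracic gene, measured 4.11 and 4.86 TPM in WT and 1.64 and 1.87 TPM in cKO (log2 fold change -1.41 ± 0.191, adjusted p = 0.00297). The libraries of the genotypes did not overlap for either gene. Hoxb9 was low, at 0.50 and 0.37 TPM in WT and 0.17 and 0.19 TPM in cKO, and with 7 to 30 counts a library its log2 fold change of -1.30 ± 0.435 did not pass (adjusted p = 0.067). It passed without WT replicate 2 (adjusted p = 0.0251). With 1 WT library left out, the other is assumed to vary like the cKO pair, which alone gives the spread, and 7934 to 8750 genes passed in place of 4677. With 1 cKO library left out the WT pair gives it, and 1867 to 1904 passed. Calls gained or lost in this way below carry that limit. Hoxd9 had 8 or 9 counts in every library and was not tested.

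The ends of the clusters differed from each other. Hoxa13, a gene of the hand and foot, measured 1.82 TPM in both WT libraries and 0.67 and 0.75 TPM in cKO (log2 fold change -1.60 ± 0.240 SE, adjusted p = 0.00441, edgeR). Hoxc12 measured 2.09 and 2.68 TPM in WT and 0.45 and 0.96 TPM in cKO, from 6 and 17 counts in the cKO libraries (log2 fold change -1.80 ± 0.441, adjusted p = 0.0252). It was the called gene with the widest interval, -2.86 to -0.74, and without cKO replicate 1 it no longer passed (adjusted p = 0.151). Hoxc13, a gene known for hair and nail, lies next to Hoxc12 and stood at 2.77 and 3.30 TPM in WT and 3.78 and 3.45 TPM in cKO. Its log2 fold change was 0.15 with a 95% interval of -0.25 to 0.55, which excludes falls of the size of Hoxa13 and Hoxc11. Hoxb13 had 0 and 9 counts in WT and 0 and 1 in cKO, and Hoxd12 and Hoxd13 had 0 counts apart from 1 in a WT library.

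**Figure D3:**
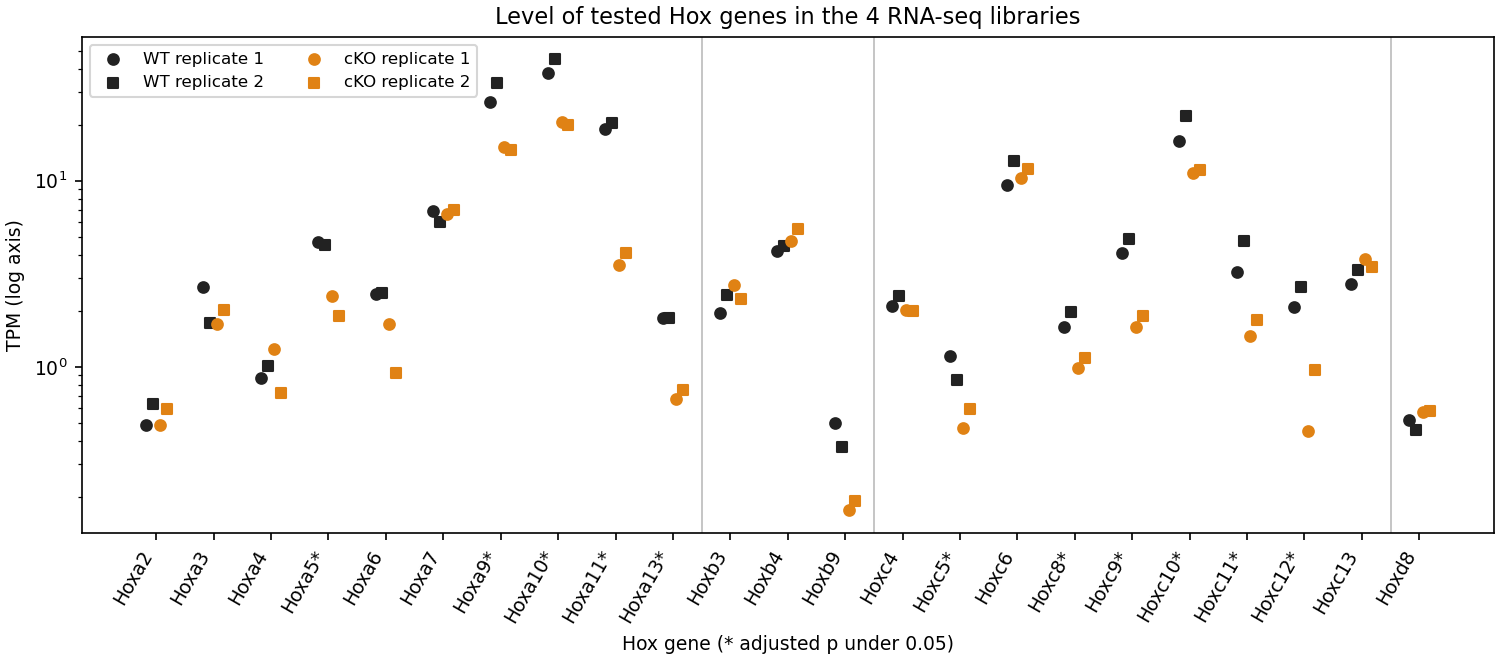
TPM of tested Hox genes in each of the 4 RNA-seq libraries (black WT, orange cKO, circles replicate 1, squares replicate 2) on a log axis, ordered by cluster and paralogue group, with an asterisk for an adjusted p under 0.05. The black points of Hoxa9, Hoxa10 and Hoxa11 lie above their orange points, by most for Hoxa11, and those of Hoxa7, Hoxb4 and Hoxc6 lie among them or close by.

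In the anterior and central groups, the 3 genes that fell were Hoxa5, Hoxc5 and Hoxc8. Hoxa5, a gene of the neck, shoulder and airway, measured 4.69 and 4.54 TPM in WT and 2.40 and 1.88 TPM in cKO (log2 fold change -1.22 ± 0.190 SE, adjusted p = 0.00513, edgeR). The other 2 were borderline. Hoxc5 measured 1.14 and 0.85 TPM in WT and 0.47 and 0.59 TPM in cKO (adjusted p = 0.041), and Hoxc8, a thoracic gene, 1.63 and 1.97 TPM in WT and 0.99 and 1.12 TPM in cKO (adjusted p = 0.0488). Without cKO replicate 1 these gave 0.243 and 0.278, without cKO replicate 2 they gave 0.251 and 0.203, and Hoxc8 gave 0.0614 without WT replicate 2. With replicate number as a block Hoxc5 gave 0.0536. In the table Hoxc5 spans Hoxc6, Hoxc8, Hoxc9 and part of Hoxc10, and Hoxa3 spans Hoxa4, Hoxa5 and Hoxa6, all on the same strand, so that the division of reads among overlapping transcripts is uncertain for these genes.

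Hoxa7 and Hoxc6 were the most abundant Hox genes that did not fall. Hoxa7, a central HoxA gene of the thoracic region, measured 6.91 and 6.02 TPM in WT and 6.59 and 7.0 TPM in cKO (log2 fold change 0.08, 95% interval -0.21 to 0.36). It stands between Hoxa5 and Hoxa9, which both fell, and was the 1 tested Hox gene with both cKO libraries above both WT libraries in CPM (8.17 and 8.35 against 7.90 and 7.78). Hoxc6, a gene at the boundary of neck and thorax, measured 9.46 and 12.8 TPM in WT and 10.4 and 11.5 TPM in cKO (log2 fold change -0.12, interval -0.52 to 0.28). Both cKO values lay between the WT values, and against WT replicate 2 alone, with the spread of the cKO pair, Hoxc6 passed as lower (log2 fold change -0.32, adjusted p = 0.0177). Hoxa6, a gene between Hoxa5 and Hoxa7, lay at 2.45 and 2.48 TPM in WT and 1.69 and 0.93 TPM in cKO (log2 fold change -1.04, interval -2.00 to -0.08, adjusted p = 0.0957), from 13 to 38 counts a library.

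The genes described of groups 2 to 4 had overlapping libraries or intervals that held 0. Hoxa2, which sets the identity of the second branchial arch, measured 0.49 and 0.63 TPM in WT and 0.49 and 0.59 TPM in cKO. Hoxa3, needed for thymus and parathyroid, measured 2.70 and 1.73 TPM in WT and 1.70 and 2.01 TPM in cKO, and passed as lower against WT replicate 1 alone, with the spread of the cKO pair (adjusted p = 0.021). The libraries of the genotypes overlapped for both. Hoxa4 measured 0.87 and 1.01 TPM in WT and 1.24 and 0.72 TPM in cKO. Hoxc4 measured 2.12 and 2.41 TPM in WT and 2.03 and 2.00 TPM in cKO, with a log2 fold change of -0.27 and an interval of -0.76 to 0.23. Adjusted p-values of these 4 genes lay between 0.371 and 0.918.

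The HoxB and HoxD clusters contributed little. Hoxb3 measured 1.94 and 2.43 TPM in WT and 2.75 and 2.31 TPM in cKO (log2 fold change 0.18, 95% interval -0.30 to 0.65). Hoxb4, known for its action on blood stem cells, measured 4.18 and 4.44 TPM in WT and 4.76 and 5.51 TPM in cKO (log2 fold change 0.16, interval -0.16 to 0.48). These are the 2 HoxB genes with over 1 TPM, and neither passed. Hoxd8 was the only HoxD gene tested, at 0.52 and 0.46 TPM in WT and 0.57 and 0.58 TPM in cKO from 20 to 31 counts (log2 fold change 0.08, interval -0.70 to 0.87). The 15 Hox genes that were not tested, 7 of HoxB and 8 of HoxD, had 0 to 18 counts in any library. Hoxb1 and Hoxd12 had 0 in all 4, where a count of 0 allows up to 3 counts, or 0.0881 to 0.125 CPM before TMM scaling. For 6 of the 39 genes, namely Hoxb1, Hoxd1, Hoxd3, Hoxd4, Hoxd10 and Hoxd12, the table gives a genomic span shorter than the gene's length, and their values may miss part of the gene.

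Other genes of the clusters had few counts. Between the first and last Hox gene of each cluster the table lists 46 further genes, among them 16 listed as misc_RNA, 9 antisense RNAs, 7 miRNAs and 6 lincRNAs. Of the 46, 31 had 0 counts in every library and 6 were tested. A count of 0 does not show here that a transcript is absent. The RNA was purified with poly-T beads, per the study's methods, and the misc_RNA and miRNA entries are 68 to 233 bases long. Some other entries are listed over spans shorter than their length. Hoxa11os, transcribed from the opposite strand across the start of Hoxa11, had 185.14 and 138.06 estimated counts in WT and 41.13 and 78.06 in cKO and was the 1 that passed (log2 fold change -1.31 ± 0.227 SE, adjusted p = 0.00766, edgeR). The library kit did not mark strand, so reads from Hoxa11 and Hoxa11os, which overlap, cannot be told apart. Hotairm1, at the anterior end of HoxA, had 43 and 88 counts in WT and 38 and 70 in cKO, and passed only against WT replicate 2 alone, with the spread of the cKO pair (adjusted p = 0.0168). Against WT replicate 1 alone its log2 fold change turned to 0.58. Hoxaas2, Gm15050, 5730596B20Rik and Gm53 had 1 to 36.92 counts a library and adjusted p-values of 0.11 to 0.93. Gm15050 passed as lower under limma (adjusted p = 0.0331 and 0.0269 at the 2 pseudocounts). Hotair, the HoxC antisense RNA next to Hoxc12, had 2 to 9 counts.

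The start regions of Hoxa10 and Hoxa11 are given as those of the abundant genes that fell the furthest in level. Each is the stretch of 250 bases before a RefSeq start in GRCm38.p6, for Hoxa10 the upstream one of 2, read 5′ to 3′ on the minus strand. The window of Hoxa11 lies within the span of Hoxa11os.
Hoxa11, chr6:52245811-52246060: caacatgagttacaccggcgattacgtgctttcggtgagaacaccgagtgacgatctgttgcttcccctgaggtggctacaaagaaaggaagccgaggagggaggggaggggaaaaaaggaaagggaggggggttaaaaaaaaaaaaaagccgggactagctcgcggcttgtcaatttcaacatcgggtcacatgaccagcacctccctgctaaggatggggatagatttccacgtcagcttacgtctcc
Hoxa10, chr6:52240855-52241104: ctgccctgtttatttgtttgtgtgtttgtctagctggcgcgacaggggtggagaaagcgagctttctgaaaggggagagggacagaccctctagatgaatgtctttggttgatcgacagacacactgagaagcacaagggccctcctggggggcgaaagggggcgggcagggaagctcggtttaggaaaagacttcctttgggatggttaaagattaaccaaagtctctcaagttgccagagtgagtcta
Neither window held the letters TGATTNAT (the paired HOX and PBX motif), TTTATG (the posterior HOX and CDX motif) or TGACAG (the MEIS and PKNOX motif) on either strand, so none is in capitals. RefSeq windows were found for 22 Hox genes, 24 windows in all, and for none of Hoxc5 to Hoxc13. TGATTNAT was in 2 of the 24, against 2.8% of 32851 windows of all genes, TTTATG in 5 against 10.8%, and TGACAG in 2 against 15.9%.

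Genes that mark position in the limb were also compared. The list held 17 genes chosen for their part in the axes and the fore- or hindlimb identity of the limb bud, and of the 14 tested, 5 were lower and 2 higher in cKO, beside 16.8% and 13.7% of all genes, with a median log2 fold change of -0.03 against 0.00 over all genes. The 2 higher genes are near the share over all genes. Here too a gene passed the filter with enough counts in 1 genotype alone, so that these counts do not describe all 17 genes. Pitx1, the gene that gives the hindlimb its identity, measured 2377 and 2238 counts in WT and 176 and 214 in cKO (log2 fold change -3.42 ± 0.1 SE, adjusted p = 9.0e-06, edgeR). Isl1, which starts the hindlimb bud, had 75 and 65 counts in WT and 10 and 19 in cKO (log2 fold change -2.13 ± 0.309, adjusted p = 0.00389). Tbx5, the forelimb counterpart, had 23 and 22 counts in WT and 1 in each cKO library, a ratio of 19.9 with an exact counting interval of 5.21 to 170.0. It passed in edgeR (adjusted p = 0.00394) and not in limma (adjusted p = 0.115 and 0.13 at the 2 pseudocounts). Lmx1b, the dorsal gene of the limb, had 168 and 136 counts in WT and 5 and 6 in cKO (log2 fold change -4.61 ± 0.279, adjusted p = 0.000123). Tbx15, a gene of the shoulder blade with the highest mean TPM of the list over both genotypes, measured 32.9 TPM in WT and 19.0 TPM in cKO as means of 2 libraries (log2 fold change -0.86 ± 0.106, adjusted p = 0.00213). In WT alone Pitx1 was higher, with a mean of 45 TPM. Both genes of hindlimb identity that could be tested and the single one of forelimb identity were lower. Tbx5 and Lmx1b had enough counts for the filter in WT alone.

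The 2 position genes that rose were Hand2 and Meis2. Hand2, which acts in the posterior limb bud upstream of Shh, had 15 and 0 counts in the WT libraries and 108 and 139 in the cKO libraries (log2 fold change 4.19 ± 0.678 SE, adjusted p = 0.00589, edgeR). The WT libraries differed from each other here, and DESeq2 did not call the gene (adjusted p = 0.136). Hand2 had enough counts for the filter in cKO alone. Meis2, a gene of the proximal limb, had 112 and 79 counts in WT and 257 and 370 in cKO (log2 fold change 1.86 ± 0.150, adjusted p = 0.000386). With 1 library left out, the median log2 fold change of the position list ranged from -0.05 to 0.09.

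**Figure D4:**
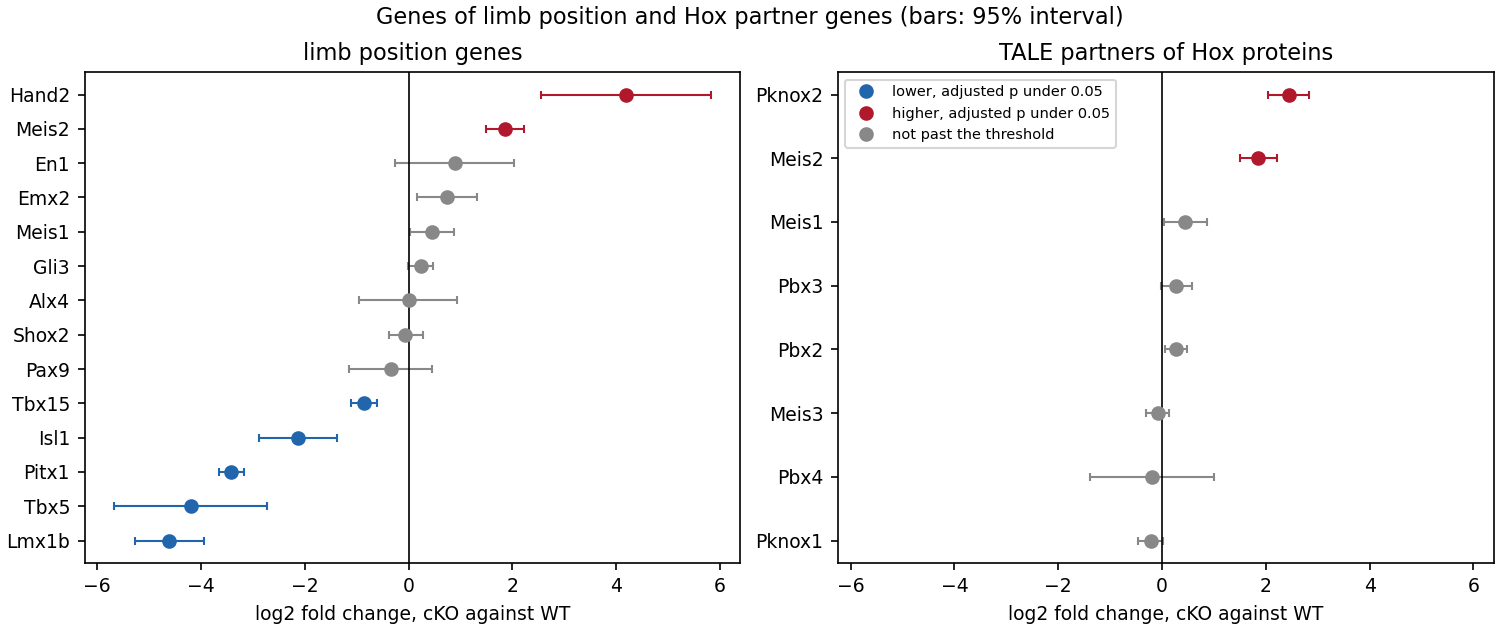
Log2 fold change, cKO against WT (horizontal axis), with 95% intervals of the edgeR fit as bars, for the 14 tested genes of limb position (left) and for TALE partners of Hox proteins (right; Meis1 and Meis2 are in both). Blue marks lower and red higher genes at an adjusted p under 0.05. Lmx1b, Tbx5 and Pitx1 lie below -3 and Hand2 above 4, and Pknox2 and Meis2 are red among the partners.

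Hox proteins bind DNA together with TALE homeodomain proteins of the Pbx, Meis and Pknox families, and all 9 such genes were tested. Of these 3 were higher and 0 lower (edgeR), beside 13.7% higher and 16.8% lower over all genes, and their median log2 fold change was 0.28. Pknox2 had 78 and 57 counts in WT and 307 and 347 in cKO (log2 fold change 2.44 ± 0.162 SE, adjusted p = 0.000178, edgeR). Meis2 rose as well, with the values above. The cKO libraries lay above the WT libraries for both. Summed over the 9 genes, the partners were at 125 and 127 CPM in WT and 183 and 180 in cKO.

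Trithorax proteins keep Hox genes on and Polycomb proteins keep them off. Of 13 Trithorax group genes, 6 were higher and 0 lower, beside 13.7% and 16.8% of all genes, with a median log2 fold change of 0.21. The 6 had log2 fold changes of 0.26 to 0.72, and only Kmt2a passed under every alternative run. Of 23 Polycomb group genes, 3 were higher and 3 lower, near the shares over all genes, with a median of 0.01. The 3 higher genes had log2 fold changes of 0.47 to 0.84. Phf19, an accessory protein of PRC2, had 238 and 239 counts in WT and 78 and 111 in cKO (log2 fold change -1.20 ± 0.166 SE, adjusted p = 0.00322, edgeR). Rbbp7, a histone-binding subunit of PRC2 and the most abundant gene of the list, changed little (log2 fold change -0.25 ± 0.0578, adjusted p = 0.0219) and did not pass without cKO replicate 1 or 2 (adjusted p = 0.322 and 0.269).

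Among regulators upstream of the clusters, 6 of 9 were tested, and 2 were higher and 2 lower, beside 13.7% and 16.8% of all genes. The receptors of retinoic acid, which switches on anterior Hox genes, did not move alike. Rara did not pass (log2 fold change 0.21, adjusted p = 0.0943), Rarb, itself a retinoic acid target, rose from 30 and 29 counts in WT to 209 and 276 in cKO (log2 fold change 3.18 ± 0.183 SE, adjusted p = 0.000101, edgeR), and Rarg fell from 1249 and 1168 to 642 and 879 (log2 fold change -0.53 ± 0.0865, adjusted p = 0.006). Rarg did not pass without cKO replicate 1 (adjusted p = 0.0675). Gmnn, which encodes the Hox-binding protein geminin, had 1052 and 1089 counts in WT and 444 and 655 in cKO (log2 fold change -0.84 ± 0.126, adjusted p = 0.00444). The Cdx genes, activators of trunk Hox genes, had 0 to 3 counts in any library. Over all 51 tested partner and regulator genes, 14 were higher and 5 lower, or 19 called in all, where 13.7%, 16.8% and 30.5% of all genes were. Their median log2 fold change was 0.09, and it ranged from 0.05 to 0.14 with 1 library left out.

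Few of the tested Hox genes carried an m6A peak. A peak summit lay in 5 of the 24 tested Hox genes (20.8%), in 39.9% of the 14354 tested genes that could be matched to GENCODE vM1, and in 42.1% of the 10158 of these with WT levels in the range of the tested Hox genes (0.44 to 41.5 TPM). The range runs from the lowest to the highest tested Hox gene and was not matched to the levels within it. Hoxa6, at rank 12 of the Hox genes in WT, had a mean of 2.46 TPM. The difference in shares was not tested, nor was the part of the level in it. Hoxb6, the sixth Hox gene with a peak, had 0 counts in both WT RNA-seq libraries. Of the 11 Hox genes that fell, Hoxa10 had a peak and the other 10 had none, whereas Hoxa3, Hoxa6, Hoxc4 and Hoxd8 had one and did not pass. By comparison, 6 of the 14 tested limb position genes (Pitx1, Tbx15, Shox2, Gli3, En1 and Emx2) and 25 of the 51 partner and regulator genes had a peak. Peaks were mapped only in MSCs labelled wild type, so no change of m6A could be measured.

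The Hox peaks were shallow. Their pileup, the number of immunoprecipitated fragments at the summit, ran from 8 to 39, against a median of 60 over all peaks, while 6 of the 7 had a fold enrichment over the local background above the median of 4.03. The Hoxa10 peak (chr6:52182535-52182799) had the highest pileup, 39, and the lowest enrichment, 3.05-fold (−log10 q of 6.67). Its summit fell on the GGAC shown above, within the second of 2 exons, 102 nt before the last coding base. The summit is in the codon of residue 382 of 416, inside the homeodomain at residues 342 to 401. The Hoxd8 peak, the most enriched at 10.96-fold (pileup 16), had its summit 111 nt before the last coding base and also inside the homeodomain (residue 252; homeodomain 195 to 254). It was the only one of the 7 without GGAC, which 87.0% of all peaks in genes held.

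The Hoxa3 peak had a pileup of 22 and an enrichment of 9.05-fold, with its summit 152 nt before the last coding base and past the homeodomain. The Hoxa6 peak (15; 6.89-fold) had its summit 10 nt before the last coding base, closer to the stop codon than the others. That site also lies in an intron of Hoxa3 and within the span of an antisense gene. The Hoxd8 and Hoxb6 summits each lie within the span of an antisense gene too. Whether an exon of the antisense gene covers the summit was not recorded, so the gene of origin of these peaks is uncertain. The Hoxc4 peaks were in the 5′UTR (15; 7.62-fold) and in an intron (10; 5.24-fold), and the Hoxb6 peak in the 3′UTR (8; 6.72-fold). Within 50 bases of the summit, GGAC was found for 4 of the 7 Hox peaks, beside 60.4% of all peaks in genes.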

How the data were processed

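RNA-seq and m6A MeRIP-Seq samples were grouped by the genotype and title in the labels. Per the labels, the authors' processing notes name HISAT2 2.0.4, TopHat and MACS2, and the builds mm10 and mm9. The deposited RNA-seq table holds an estimated count for each gene, not normalized, and a value headed FPKM that the authors scaled to a sum of 1000000 a library, which makes it TPM. The deposited peak list is a single one for all MeRIP samples and holds, from the authors' peak caller, the pileup signal at the summit, a ratio called fold enrichment and the −log10 of the q-value. Whether samples were pooled is not given in the sources used here, so that peaks have no replicates.

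The 89 unnamed entries (0.11% to 0.125% of counts) were left out. Estimated counts were rounded, filtered with filterByExpr, scaled by TMM (factors 0.9867 to 1.012) and compared by the two-sided quasi-likelihood test of edgeR 4.0.16 in R 4.3.3, without a block, with Benjamini-Hochberg adjustment over all genes tested. Intervals are 95% intervals of the fit, and counting intervals and floors cover counting error only. Alternatives were the replicate block, no filter, size factors by the median of ratios, DESeq2 1.42.0, limma 3.58.1 on log2(TPM + 0.1) and log2(TPM + 1), each library left out, and, chosen after seeing the data, the cKO libraries summed to 1 sample. Peaks were also counted at a −log10 q of at least 5, by summit in an exon and by any base in an exon.

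The members and gene lists were chosen with earlier results of these data known. Named were all Hox genes and other genes of the clusters that passed the filter, Mettl3, and, of the partner, regulator and position lists, up to 4 called genes per list and direction with the largest change and the gene with the highest mean TPM. Some members are not reported here. Other members named (Shox2, Gli3, En1, Emx2, Meis1, Kmt2a, Rara, Hotair, the Cdx genes, low Hox genes and marker genes) are given outside that rule. A peak belonged to the gene at its summit, an exon before an intron. Peak sequences were read from NCBIM37 (mm9) and start regions from RefSeq (GRCm38.p6), and the homeodomain was located by a residue pattern in the translated transcript.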

Additional observations from a re-analysis of the deposited data

How the results depend on the processing

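All 11 Hox genes called lower kept their direction under every alternative run, and 8 to 13 Hox genes were called with a single library left out, all lower. The same Hox genes were called with other size factors or no filter. The replicate numbers mark nothing shared in the labels (correlation of deviations 0.032), and with the replicate block 10 Hox genes were called instead of 11. DESeq2 and limma each called 9. The block called 8 limb position genes instead of 7. All genes called numbered 4677, and 1867 to 8750 with 1 library left out. They numbered 5874 without the filter, 3221 and 3189 with limma at the lower and higher pseudocount, 3862 with DESeq2 and 2012 with the cKO libraries summed. Summing them gave 8 Hox genes (without Hoxc5, Hoxc8 and Hoxc12) and, for partners and regulators, 11 called, 8 higher and 3 lower. Limma called 12 of these at the lower pseudocount, and 8 and 9 higher at the lower and higher. With 1 library left out they ranged from 11 to 35 called, 8 to 26 higher and 3 to 13 lower. Limb position genes ranged from 7 to 12 called and 2 to 6 higher, and DESeq2 called 1 higher. Other cluster genes ranged from 1 to 2, and limma called 2. The log2 ratio of summed Hox TPM, cKO over WT, ranged from -0.92 to -0.68. Peaks lay on the same 6 Hox genes under each rule. With 1 library left out, the sign of uncalled genes turned: the log2 fold change ranged from -0.33 to 0.06 for Hoxa2, -0.53 to 0.07 for Hoxa3, -0.49 to 0.30 for Hoxa4, -0.32 to 0.11 for Hoxc6, -0.04 to 0.19 for Hoxd8, -0.08 to 0.02 for Mettl3, -0.72 to 0.42 for Hoxaas2, -0.38 to 0.79 for 5730596B20Rik, -3.58 to 0.12 for Gm53 and -0.70 to 0.58 for Hotairm1. Under limma Hoxa4 gave 0.01 and 0.02. The cause of these moves was not tested. Most Hox genes had few counts, and the interval of Hoxc4, -0.76 to 0.23, shows what 63 to 96 counts a library leave undecided.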
